A study of Rattus norvegicus with 24 samples.

Results

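The histone genes of the rat frontal cortex were taken as every reference gene of the deposited tables whose name starts with Hist1h, Hist2h, Hist3h, Hist4h, H1f, H2af or H3f. This gave 34 of the 32883 reference genes, of which 22 carry a Hist name and 12 an H1f, H2af or H3f name. The names alone defined the set and no measured value filtered it, but it was chosen with earlier results of these data known. The RNA came from 24 adult male Sprague-Dawley rats that inhaled an aerosol of tungsten, a metal, or none of it, and the cortex was sampled the day after exposure. The Control group was labelled 0 mg/m3, the Low group 5 mg/m3 and the High group 80 mg/m3, with 8 rats each and 1 library per rat. Genotype and age in weeks are not in the labels, so beyond adult males of the outbred strain nothing more is known of the animals. The same 8 Control rats served both doses.

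Histones are the proteins around which DNA is wrapped. Core histones H2A, H2B, H3 and H4 form the nucleosome, and linker histones of the H1 family bind the DNA between nucleosomes. Replication-dependent histones come from gene clusters, are made mostly while DNA is copied, and their mRNAs typically end in a stem-loop rather than a poly(A) tail. Replacement histones such as H3.3 come from polyadenylated mRNAs throughout the cell cycle and are the main supply of new histones in neurons, which no longer divide. The libraries were prepared from polyadenylated RNA with a stranded kit, so a Hist gene was measured here mainly through whatever tailed RNA it gave. A gene that makes less RNA and a gene whose RNA carries fewer tails cannot be told apart, nor, in bulk tissue, can fewer cells of a type and less RNA per cell.

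The promoters of 5 genes are shown as examples, and those of H3f3a and H3f3b are not. They are a near-identical H2A pair, the H2B genes Hist2h2be and Hist3h2ba, and the linker histone gene H1f10 for contrast. The pair was called between the doses in the fit of all libraries, but not under some alternatives given below. Each runs from 250 bases before to 50 after the transcription start that RefSeq gives on build GRCr8, in the direction of the gene. Capitals mark every match on either strand to the letters of 3 motifs of histone promoters. These are TATAAA for the TATA box, the letters CCAAT for the box of that name, and ATTTGCAT for the octamer of H2B genes. In Hist2h2be the letters of overlapping matches run together.
Hist2h2aa2, chr2:186490715-186491014, minus strand: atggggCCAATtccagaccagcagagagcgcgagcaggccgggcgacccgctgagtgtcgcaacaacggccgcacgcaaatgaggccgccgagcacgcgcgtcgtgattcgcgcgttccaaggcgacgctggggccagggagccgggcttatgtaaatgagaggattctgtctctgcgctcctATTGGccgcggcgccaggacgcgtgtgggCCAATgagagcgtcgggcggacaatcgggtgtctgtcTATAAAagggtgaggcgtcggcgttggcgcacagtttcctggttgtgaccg
H2ac18, chr2:186497021-186497320, plus strand: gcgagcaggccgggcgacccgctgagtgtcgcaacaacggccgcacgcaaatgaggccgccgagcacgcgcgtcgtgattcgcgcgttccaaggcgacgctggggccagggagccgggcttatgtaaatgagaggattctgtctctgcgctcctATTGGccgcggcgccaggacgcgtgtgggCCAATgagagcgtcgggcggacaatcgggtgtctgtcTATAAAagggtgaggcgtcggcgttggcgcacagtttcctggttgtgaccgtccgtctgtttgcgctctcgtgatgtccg
Hist2h2be, chr2:186469202-186469501, plus strand: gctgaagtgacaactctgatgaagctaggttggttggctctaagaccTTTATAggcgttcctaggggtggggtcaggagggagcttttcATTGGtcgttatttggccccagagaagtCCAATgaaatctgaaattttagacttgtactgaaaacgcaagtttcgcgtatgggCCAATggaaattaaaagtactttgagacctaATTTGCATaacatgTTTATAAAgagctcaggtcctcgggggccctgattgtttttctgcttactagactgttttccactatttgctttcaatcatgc
Hist3h2ba, chr10:44225171-44225470, plus strand: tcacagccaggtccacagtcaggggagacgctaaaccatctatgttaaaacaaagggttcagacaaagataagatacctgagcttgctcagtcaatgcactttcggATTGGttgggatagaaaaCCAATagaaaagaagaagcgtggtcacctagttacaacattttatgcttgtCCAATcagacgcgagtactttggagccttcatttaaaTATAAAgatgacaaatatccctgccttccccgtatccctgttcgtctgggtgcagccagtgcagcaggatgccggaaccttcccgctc
H1f10, chr4:121998848-121999147, minus strand: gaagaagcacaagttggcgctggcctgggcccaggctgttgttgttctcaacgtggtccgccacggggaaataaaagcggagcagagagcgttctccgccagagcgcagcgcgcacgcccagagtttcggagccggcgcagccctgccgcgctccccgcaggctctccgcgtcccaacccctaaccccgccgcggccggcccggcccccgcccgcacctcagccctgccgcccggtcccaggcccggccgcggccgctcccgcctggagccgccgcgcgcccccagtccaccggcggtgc
The windows of Hist2h2aa2 and H2ac18 share an unbroken run of 271 of their 300 bases, displaced by 29 bases. Their TATAAA thus begins 1 base before the given start in Hist2h2aa2 and 30 bases before it in H2ac18. RefSeq lists Hist2h2aa3 as an older name of both, and the strands of the tables and of RefSeq are opposite, so the table's pair was not matched to these windows gene by gene. Among the 5 shown, Hist2h2be alone held all 3 motifs, and in H1f10 none of these letters was found. The H2B gene Hist3h2ba lacked ATTTGCAT. The promoter of H3f3b, an H3.3 gene that is not shown, also held all 3 motifs. Of 11 promoters of tested histone genes or their RefSeq equivalents, CCAAT was in 10, TATAAA in 6 and ATTTGCAT in 3. Over all 33469 promoters of the same length, CCAAT was in 37.5%, TATAAA in 14.2% and ATTTGCAT in 1.78%.

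Values are scaled coverage, the mean read depth per base of a gene divided by the library's sum over reference genes and multiplied by 1000000, so levels of different genes are comparable per length. In units of 1000000, summed reference coverage was 1.64 to 3.07 per library and the mitochondrial share 21.8% to 33.8%. The tables hold no read counts, so counting error is unknown. Libraries 56 to 62, which are 1 Control and 6 Low libraries, stood apart. In these, 8 mitochondrial genes of the minus strand under 80 bases summed to 5449 to 8102, against 84.9 to 155 in the other 17. Library 56 also listed 159573 loci assembled from its reads, against 46334 to 66427 in the other Control libraries, and the Low tables listed none. Calls between groups are therefore set beside their values without libraries 56 to 62. Cortical neuron markers were present in all libraries, with a summed level of 1421 to 2399 among Control rats, 1683 to 2303 among Low rats and 1200 to 2284 among High rats.

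Of the 34 genes, 13 reached a mean scaled coverage of at least 1 over the 24 libraries and were tested. These were 7 of the 22 Hist genes and 6 of the 12 others. The prefix does not follow biology throughout: H1f1, H1f2, H1f4, H1f5 and H1f6 lie on chromosome 17 among the Hist1h genes, so only part of the second set are replacement histones. Genes of the H3f3 family carried most of the signal. Together, H3f3a, H3f3b and H3f3c made up 80.7% to 87.8% of the coverage of the 12 genes in every library.

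**Figure D1:**
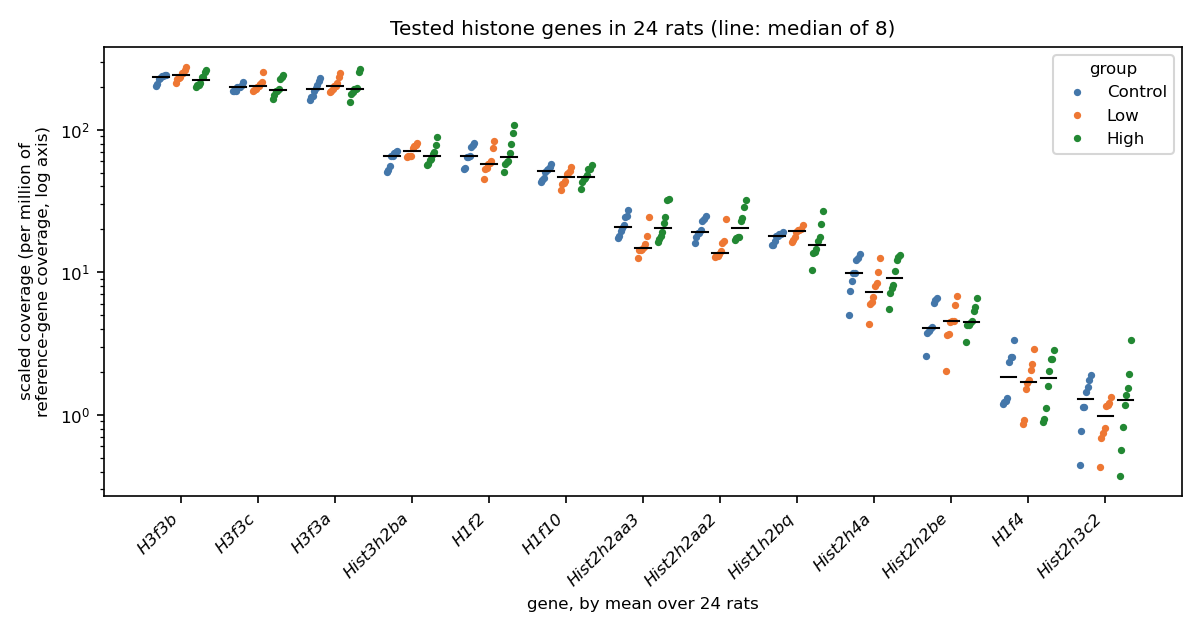
Scaled coverage of the 13 tested histone genes in each of 24 rats, on a log axis, ordered by their mean, with 8 points per group and a line at the group median. The H3f3 genes lie between 156 and 273, Hist3h2ba, H1f2 and H1f10 between 37.9 and 107, and the Hist2h2aa pair of the Low group mostly below the other groups.

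H3.3 is the replacement form of histone H3. H3f3b (ENSRNOG00000003220, listed on chromosome 13 from 99091763 to 99101208, minus strand) was the highest histone gene. Its scaled coverage was 203 to 243 among Control rats (median 234), 214 to 273 among Low rats (median 241) and 201 to 264 among High rats (median 223). H3f3a (ENSRNOG00000006532, chromosome 10, 104573664 to 104575890, minus strand) was at 163 to 232 among Control rats (median 191), 183 to 249 among Low rats (median 202) and 156 to 267 among High rats (median 193). The groups overlapped for both genes. Low minus Control was 0.08 ± 0.06 (log2, SE) for H3f3b and 0.11 ± 0.10 for H3f3a, and High minus Control was -0.02 ± 0.06 and 0.06 ± 0.10. Their ratio, H3f3b to H3f3a, exceeded 1 in 23 of 24 libraries, with a range of 0.957 to 1.46. The names need care, since RefSeq puts H3f3a on chromosome 13 and H3f3b on chromosome 10, the reverse of the tables.

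H3f3c (ENSRNOG00000032401, chromosome 7, 94777702 to 94778696, plus strand) is a pseudogene in RefSeq. It was nevertheless listed at 186 to 216 among Control rats (median 199), 185 to 253 among Low rats (median 201) and 165 to 241 among High rats (median 190). Its ratio to H3f3a stayed between 0.866 and 1.16 over the 24 libraries. The sources used here do not say how reads were split among near-identical members, so the single levels of the 3 genes are uncertain. Their sum was 620 ± 43.2 in Control, 656 ± 58.1 in Low and 630 ± 88.3 in High (mean ± SD, n = 8 each), and the groups overlapped.

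H1f2 encodes a linker histone found in most cell types and led the H1 genes. H1f2 (ENSRNOG00000054978, chromosome 17, 43639749 to 43640387, minus strand) was at 52.7 to 80.1 among Control rats (median 65.0), 45.3 to 82.9 among Low rats (median 57.9) and 50.7 to 107 among High rats (median 64.5). H1f10 (ENSRNOG00000027722, chromosome 4, 119889371 to 119889949, minus strand), the linker histone also called H1x, was at 42.7 to 57.5 among Control rats (median 51.5), 37.9 to 55.1 among Low rats (median 46.4) and 38.3 to 56.5 among High rats (median 46.9). The groups overlapped for both genes. Low minus Control was -0.15 ± 0.14 for H1f2 and -0.11 ± 0.08 for H1f10 on the log2 scale, and neither passed the test. H1f4, another linker histone of the chromosome 17 cluster, was far lower, at 0.868 to 3.32 over all libraries. The remaining H1f genes were below the level for testing. H1f5 and H1f6 reached at most 1.09 and 1.43, H1f1 was above 0 in 9 libraries, the oocyte linker histone gene H1f8 in 3, and the spermatid gene H1f7 in none. H2afb3 was also listed at 0 in all 24 libraries.

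Among the Hist genes, Hist3h2ba stood out. It encodes an H2B and lies outside the large clusters, on chromosome 10 (ENSRNOG00000043419, 45289741 to 45290370, plus strand). It was at 50.8 to 71.3 among Control rats (median 65.5), 64.6 to 80.5 among Low rats (median 70.3) and 56.2 to 88.2 among High rats (median 65.2). The Low values began above the lowest Control values but overlapped the rest. Low minus Control was 0.20 ± 0.09 on the log2 scale, and the limma adjusted p was 0.243. Hist2h2be, an H2B gene on chromosome 2 known from other mammals for tailed transcripts in non-dividing cells, was at 2.57 to 6.57 among Control rats (median 4.05), 2.04 to 6.78 among Low rats (median 4.53) and 3.24 to 6.65 among High rats (median 4.46). Hist1h2bq, an H2B gene of the chromosome 17 cluster, was at 15.4 to 19.2 among Control rats (median 17.9), 16.4 to 21.4 among Low rats (median 19.4) and 10.3 to 26.9 among High rats (median 15.6). It spans 9387 bases and overlaps AC130391.3 on the opposite strand, whose mean level was 24.9. Hist2h4a, an H4 gene, was at 4.98 to 13.4 among Control rats (median 9.88), 4.32 to 12.5 among Low rats (median 7.33) and 5.53 to 13.3 among High rats (median 9.18). Hist2h3c2, an H3 gene, had medians of 1.29, 0.979 and 1.27 in Control, Low and High. None of these genes passed the test in any comparison.

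The 2 members that passed a test form a near-identical H2A pair on chromosome 2. Hist2h2aa2 (ENSRNOG00000052555, 198388809 to 198389201, plus strand) was at 16.1 to 24.8 among Control rats (median 19.2), 12.8 to 23.6 among Low rats (median 13.7) and 16.9 to 32.4 among High rats (median 20.3). Hist2h2aa3 (ENSRNOG00000047898, 198381798 to 198382190, minus strand) was at 17.3 to 27.5 among Control rats (median 20.9), 12.6 to 24.3 among Low rats (median 14.8) and 16.3 to 32.6 among High rats (median 20.5). Most Low libraries were low for Hist2h2aa2, and Low library 64, at 23.6, was the highest of its group. Low minus High was -0.50 ± 0.14 for Hist2h2aa2 (log2, SE), with a limma adjusted p of 0.0190, and -0.45 ± 0.14 for Hist2h2aa3, with an adjusted p of 0.0422. Against Control the same rats gave -0.40 ± 0.14 (adjusted p 0.0975) and -0.42 ± 0.14 (adjusted p 0.0937), which did not pass. Without Low library 64 these became -0.48 (adjusted p 0.0166) and -0.50 (adjusted p 0.0213), and both passed. The call of Hist2h2aa3 for Low against High was lost without any single one of Low libraries 58 to 63 or High libraries 65, 66, 67 and 70, with adjusted p from 0.0526 to 0.0943, and that of Hist2h2aa2 was not lost. High minus Control was 0.10 ± 0.14 and 0.03 ± 0.14. The ratio of one copy to the other stayed between 0.883 and 1.09, so they are close to a single measurement. Summed into 1 gene, an alternative chosen after seeing the data, they gave -0.49 for Low minus High with an adjusted p of 0.0263.

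Within each of these genes the tables list a gene of 138 bases on the opposite strand, and its level followed the libraries. AABR07012583.1, inside Hist2h2aa2, was at 2.65 to 9.86 in libraries 56 to 62 and at 0 to 1.84 in the other 17. AABR07012582.2, inside Hist2h2aa3, was at 6.37 to 11.2 and at 0 to 1.84. Hist2h2aa2 itself was at 12.8 to 17.5 in libraries 56 to 62 (median 14.0) and at 12.9 to 32.4 in the others (median 19.7). Among libraries 56 to 62, the Control library was at 17.5 and the 6 Low libraries at 12.8 to 16.6. Outside them, Low libraries 63 and 64 were at 12.9 and 23.6, against 16.1 to 24.8 in 7 Control libraries.

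With the opposite-strand gene added to its partner, Hist2h2aa2 ran from 14.0 to 25.9 in Low (median 20.5), beside 16.5 to 25.4 in Control (median 21.5) and 17.2 to 33.8 in High (median 20.7). This sum adds depths per base without weighting by length, though the genes have 138 and 393 bases. The shorter gene thus counts as if it were as long as its partner, which enlarges its part. A sum weighted by length was not run. The Low minus High difference was then -0.15 (limma adjusted p 0.467), and -0.01 for Hist2h2aa3 (adjusted p 0.970). Without libraries 56 to 62, with only 2 Low rats left, the differences were -0.29 (adjusted p 0.604) and -0.23 (adjusted p 0.695). Both alternatives were chosen after seeing the data. With libraries 56 to 62 as a term of the fit they were -0.31 (adjusted p 0.462) and -0.27 (adjusted p 0.542). On the deposited FPKM column they were -0.09 (adjusted p 0.532) and -0.06 (adjusted p 0.706), where the median over all genes was 0.52. The call for the pair therefore held neither with this term nor without these libraries. The part that the strand of the reads plays in it was not tested beyond the unweighted sum.

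**Figure D2:**
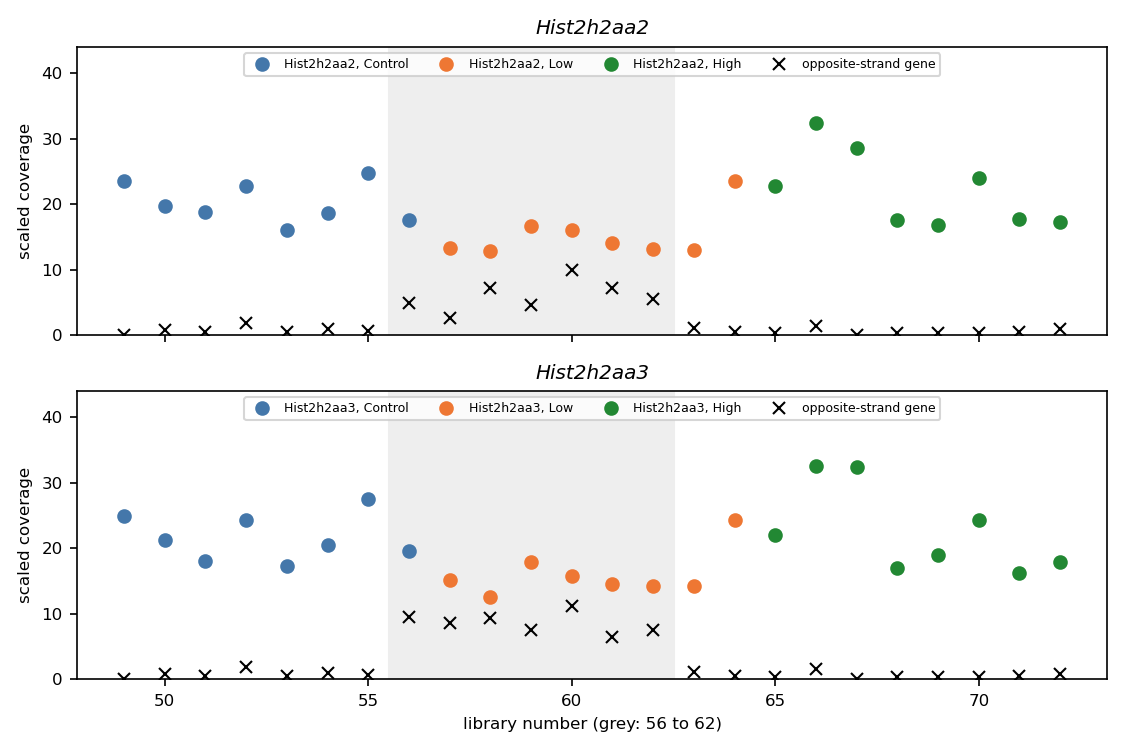
Scaled coverage of Hist2h2aa2 (top) and Hist2h2aa3 (bottom) by library number, with circles coloured by group, crosses for the 138-base gene on the opposite strand and grey for libraries 56 to 62. The crosses stand at 2.65 to 11.2 within the grey band and at or below 1.84 outside it, and Low library 64 is the high Low value.

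The counts of members called stand beside those of all genes. Low against Control called 0 of 13 members by limma, beside 6.11% of the 15644 genes tested, of which 1.23% were higher and 4.88% lower in Low, and 3 at an unadjusted p under 0.05, beside 18.4%. High against Control called 0 of 13, beside 0% of all genes, and 0 at an unadjusted p under 0.05, beside 2.11%. Low against High called 2 of 13, both lower in Low, beside 6.39% of all genes lower, 5.3% higher and 11.7% in either direction. At an unadjusted p under 0.05 it again gave 2 of 13, beside 29.1%. The exact Wilcoxon rank-sum test called 0, 0 and 1 members in these comparisons, beside 2.37%, 0% and 7.24% of all genes. The 2 members of the last comparison are near-identical copies and make up 15.4% of the 13. In no comparison did a tested member have groups that did not overlap, beside 1.53%, 0.00639% and 2.26% of all genes.

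The 7 tested Hist genes had a median log2 difference of -0.21 for Low minus Control, 0.03 for High minus Control and -0.23 for Low minus High. In the 6 tested H1f and H3f genes the medians were -0.03, -0.00 and 0.01, and over all genes tested they were 0.06, -0.03 and 0.09. Low minus Control was below 0 in 5 of 7 Hist genes, the near-identical Hist2h2aa pair among them, and in 3 of 6 others. Only genes that reached the level for testing enter these medians. Both medians of the Hist genes that involve Low are the values of Hist2h3c2, whose mean level was 1.20, just above the level for testing. With a pseudocount of 0.1 the Low minus Control median of the Hist genes was -0.35. Hist3h2ba, the highest Hist gene, was at 0.20 for Low minus Control, so the Hist genes did not move as 1 class.

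**Figure D3:**
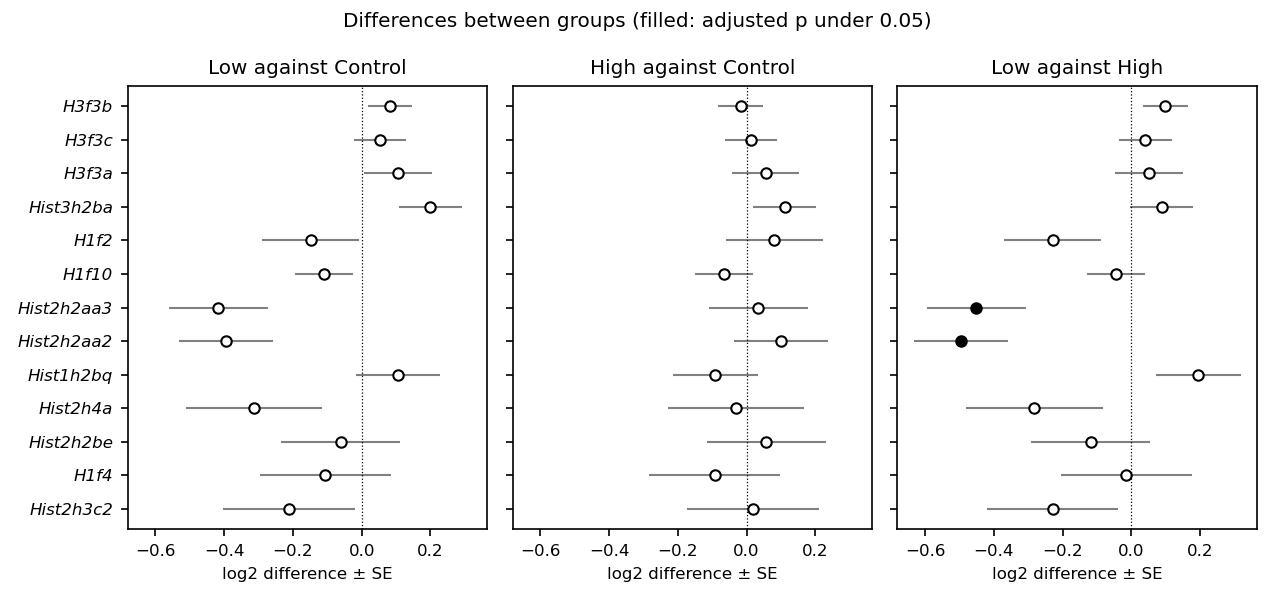
Log2 difference of scaled coverage with its SE for the 13 tested histone genes in the 3 comparisons, with filled circles where the limma adjusted p is under 0.05. The 2 filled circles are Hist2h2aa2 at -0.50 and Hist2h2aa3 at -0.45 for Low against High, and the High against Control differences lie within -0.09 to 0.11.

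Summed over all 22 Hist genes, scaled coverage was 144 ± 17.5 in Control, 139 ± 12.05 in Low and 150 ± 29.0 in High (mean ± SD, n = 8 each). The 12 H1f, H2af and H3f genes summed to 740 ± 49.0, 766 ± 62.3 and 753 ± 111. Hist genes thus made up 16.2% ± 0.954 of the coverage of these 34 genes in Control, 15.4% ± 1.29 in Low and 16.6% ± 0.855 in High. These group means differ by about the SD within a group or less, and the ranges overlap. High rats spread most in both sums, from 123 to 198 for the Hist genes. The share is not that of all histone genes, since variants under newer names, such as H2az1, are in neither sum. The 12 genes also include H1f genes of the chromosome 17 cluster and H3f3c, a pseudogene in RefSeq.

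**Figure D4:**
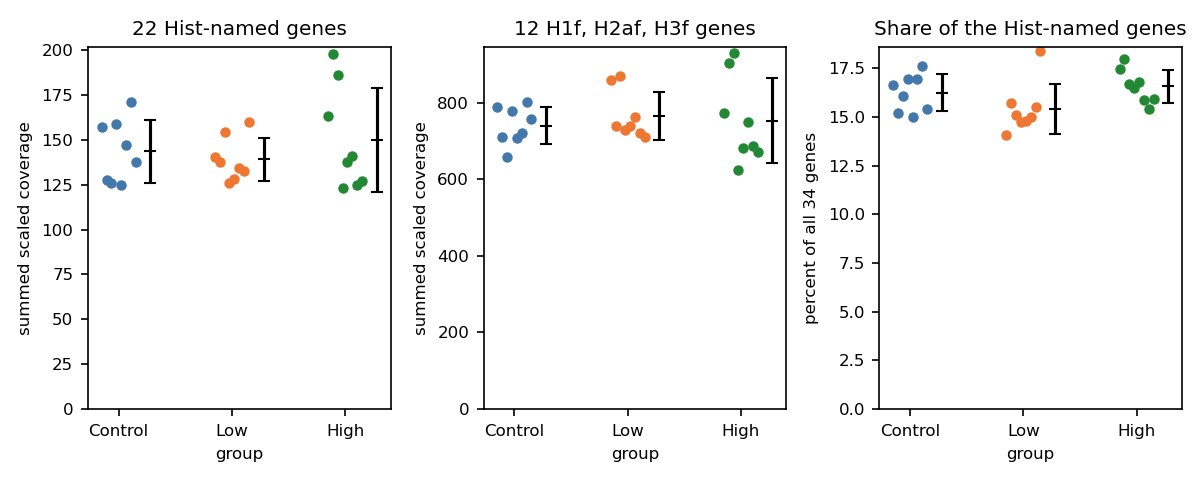
Summed scaled coverage of the 22 Hist genes (left) and of the 12 H1f, H2af and H3f genes (middle), and the Hist share of all 34 in percent (right), with 1 point per rat and bars for mean ± SD of 8. The Hist share lies between 14.1% and 18.4% in all rats, and the groups overlap in each panel.

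The 21 members below the level for testing reached at most 2.47 in any library, and 2 were listed at 0 in all. The number above 0 in a library was 10 to 14 among Control rats, 9 to 13 among Low rats and 7 to 17 among High rats, with a median of 11.5 in each group. Hist1h3b, an H3 gene, had the highest single value, 2.47 in a Control rat. Hist1h2bo, which spans 37373 bases and has H1f5 and a Hist1h2ail1 on its other strand, had the highest mean of them, 0.898. Hist1h4m, an H4 gene, was above 0 in 19 libraries.

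Equal values marked some of these genes as copies. Hist1h2ao, Hist1h4b and Hist2h4 had the same coverage, within 1e-06, in 23 of 24 libraries, 2 of them with all at 0. All 3 are listed on chromosome 4 with 312 bases, the length of the H4 genes, whereas H2A genes such as Hist2h2aa2 have 393, and RefSeq puts their names on other chromosomes. Both genes named Hist1h2ail1 have 411 bases, as do the H3 genes Hist1h3b and Hist2h3c2. The symbols of these copies were therefore not read as protein types. In all, 10 members overlapped another reference gene.

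One untested gene was named after its values were seen. It was the 1 of 34 members called for Low against Control with no filter on low values, beside 2.51% of all genes. Hist1h2an (ENSRNOG00000057700, chromosome 17, 43779174 to 43779775, plus strand), an H2A gene by name, was at 0.143 to 2.10 among Control rats (median 1.25), 0 to 0.592 among Low rats (median 0.197) and 0.566 to 1.89 among High rats (median 0.811). Its Low and High ranges overlapped only slightly, and it was excluded because its mean over 24 libraries was below 1. With no filter on low values, Low minus Control was -0.70 with a limma adjusted p of 0.0264, and Low minus High was -0.59 with an adjusted p of 0.0566. Low libraries 63 and 64 were at 0.139 and 0.425 and the other Low libraries at 0 to 0.592, while Control library 56 was at 1.25 and the other Control libraries at 0.143 to 2.10. The other identifier named Hist1h2an, ENSRNOG00000056411, was above 0 in 2 Control, 3 Low and 2 High libraries. Other untested members differed in both directions. Hist1h2af was above 0 in 7 Control, 2 Low and 6 High libraries. Hist1h2ail1 (ENSRNOG00000054539) was above 0 in 1, 6 and 2, with means of 0.0954, 0.572 and 0.138.

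Several replacement histone genes carry newer names in the tables and so fall outside the name rule. They were taken by their older symbols. H2az1, the main H2A.Z gene and formerly H2afz, was at 96.5 to 140 among Control rats (median 117), 101 to 157 among Low rats (median 112) and 110 to 138 among High rats (median 129). H2az2, formerly H2afv, had medians of 14.5, 15.3 and 15.3, and H2ax, formerly H2afx and a marker of DNA damage when its protein is phosphorylated, had 30.1, 33.2 and 28.9. Macroh2a2, formerly H2afy2, had 24.4, 26.1 and 23.4, and none of these 4 passed the test.

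Macroh2a1, formerly H2afy, encodes the large H2A variant of repressed chromatin. It was at 20.6 to 28.8 among Control rats (median 25.5), 18.9 to 24.2 among Low rats (median 21.2) and 23.96 to 30.02 among High rats (median 25.5). It was lower in Low by limma, with Low minus Control at -0.23 ± 0.07 (adjusted p 0.0449) and Low minus High at -0.26 ± 0.07 (adjusted p 0.0124). The Low and High ranges barely overlapped. On the deposited FPKM column the sign turned, to 1.001 against Control and 0.88 against High, where the median over all genes was 0.53 and 0.52, and it turned on the TPM column too. The call against Control held in 13 of 38 alternatives, counting those with the sign turned. It was lost in 18 of the 24 fits that left out 1 rat, with adjusted p from 0.0505 to 0.0961, and without libraries 56 to 62 it was -0.32 (adjusted p 0.197). The call against High was lost without these libraries (-0.31, adjusted p 0.188) and with them as a term of the fit (-0.20, adjusted p 0.354).

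The genes that serve histones were read from lists written for this purpose. Of 15 tested genes for histone mRNA processing, 0 passed against Control in either dose, beside 6.11% of all genes for Low and 0% for High. Between the doses 0 were lower in Low, beside 6.39% of all genes, and 3 were higher, beside 5.3%. These were Casp8ap2, a protein of the histone locus body (0.39 ± 0.08, limma adjusted p 0.00319), Cpsf2, a subunit of the cleavage complex (0.24 ± 0.07, adjusted p 0.0308), and the cap-binding gene Ncbp2 (0.19 ± 0.06, adjusted p 0.0235). The median of the 15 was 0.10 for Low minus Control, -0.05 for High minus Control and 0.15 for Low minus High, beside 0.06, -0.03 and 0.09 over all genes. Casp8ap2 was at 4.33 to 6.97 in Control, with a median of 6.49, and its Low median was 6.96 and its High median 4.88. The calls held in 35, 27 and 32 of 38 alternatives for Casp8ap2, Cpsf2 and Ncbp2, and 24 of these alternatives left out 1 rat each. With libraries 56 to 62 as a term of the fit all 3 calls were lost. The differences were then 0.35 (adjusted p 0.192), 0.21 (adjusted p 0.365) and 0.20 (adjusted p 0.262). Without libraries 56 to 62 their differences were 0.40 (adjusted p 0.230), 0.18 (adjusted p 0.545) and 0.22 (adjusted p 0.360). In that fit, with only 2 Low rats left, Lsm10 was the 1 gene of the list past the threshold. Lsm10, a subunit of the U7 particle that processes histone mRNAs, was at -0.72 for Low minus Control (adjusted p 0.0140). For Low minus High it was at -0.63 (adjusted p 0.0381). Over all genes 2.2% and 2.26% passed in these comparisons of that fit. With all 24 libraries Lsm10 did not pass, at -0.35 (adjusted p 0.0592) and -0.28 (adjusted p 0.0971).

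Of 27 tested identifiers of histone chaperone and exchange genes, 1 was higher and 2 were lower in Low against Control, beside 1.23% and 4.88% of all genes. Rbbp4, a histone-binding subunit of several chromatin complexes, rose by 0.23 ± 0.05 (adjusted p 0.00517). Atrx deposits H3.3 with Daxx, Set is a histone chaperone, and each name stands for 2 tested identifiers, of which 1 was lower. For Atrx, ENSRNOG00000046897 had a difference of -2.07 ± 0.37 (limma adjusted p 0.000535), while the more abundant ENSRNOG00000056703, with a mean of 41.5 against 3.73, had 0.05 ± 0.09 (adjusted p 0.816). For Set, ENSRNOG00000034241 had -1.52 ± 0.37 (adjusted p 0.0120), and ENSRNOG00000025892 had 0.09 ± 0.07 (adjusted p 0.515). Here the called identifier was the more abundant, with a mean of 27.0 against 16.5. The values that follow are of the lower identifiers. Atrx was listed above 0 in only 2 of 8 Low libraries, and these were libraries 63 and 64, at 5.61 and 5.15, inside the Control range of 2.59 to 8.48. Control library 56, at 4.91, was inside it too. Set was at 4.99 to 8.55 in libraries 56 to 62, Control library 56 included, and at 42.5 and 31.6 in libraries 63 and 64. Without libraries 56 to 62, Low minus Control was -0.09 for Atrx (adjusted p 0.939) and 0.05 for Set (adjusted p 0.930), and for Rbbp4 it was 0.22 (adjusted p 0.358). Against High, Anp32e, which removes H2A.Z, and Rbbp4 were higher in Low, beside 5.3% of all genes. The same identifiers of Atrx and Set were lower, beside 6.39% of all genes. Without libraries 56 to 62 none of these 4 passed. High against Control called 0 of 27, beside 0% of all genes.

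Of 16 tested genes of DNA replication and the cell cycle, 0 passed against Control, beside 6.11% of all genes for Low and 0% for High. Rrm1, a subunit of ribonucleotide reductase, was the 1 gene higher in Low than in High, beside 5.3% of all genes. Its difference was 0.27 ± 0.06 (adjusted p 0.00560). Without libraries 56 to 62 this was 0.25 (adjusted p 0.416). The list's summed level was 113 to 143 among Control rats, 120 to 151 among Low rats and 92.0 to 137 among High rats. RNAs that lack a poly(A) tail were taken by gene name. Their overlap with other genes was not checked, so they do not by themselves show how strictly tailed RNA was kept. Of 130 tested, 8 were higher and 17 lower for Low against Control. These are 6.15% and 13.1%, beside 1.23% and 4.88% of all genes. For Low against High it was 14 higher and 23 lower, or 10.8% and 17.7%, beside 5.3% and 6.39%. Without libraries 56 to 62 either comparison called 0 higher and 4 lower of 126, beside 2.2% and 2.26% of all genes in either direction. Their summed level was 1633 to 3322 among Control rats, 1734 to 2653 among Low rats and 1338 to 2672 among High rats. Tissue neighbours of the cortex varied between rats: striatal markers summed to 426 to 977 among Control rats, 295 to 712 among Low rats and 208 to 1576 among High rats, with 0 of 8 genes past the threshold. Their median log2 difference for Low minus Control was -0.60, that of meningeal and fibroblast genes -0.46 and that of blood genes -0.25, and no gene of the cell type lists passed in either dose against Control. Over all genes 6.11% passed for Low and 0% for High against Control. For Low against High 1 gene of these lists passed, beside 11.7% of all genes. It was the endothelial transporter Slco1a4, higher in Low by 0.33 ± 0.10 (adjusted p 0.0235), and without libraries 56 to 62 it did not pass. The part of these tissues and cell types in the histone values was not tested.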

How the data were processed

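RNA of rat frontal cortex was sequenced by the authors, who trimmed reads with Trimmomatic, aligned with TopHat2 and quantified with StringTie, with FastQC for quality, per the labels, without versions. The deposited tables give coverage as a signal (mean read depth per base), with FPKM (scaled by length and sequenced bases) and TPM. The deposited TPM column of the Control and High tables sums over assembled loci and reference genes together beyond the usual total, so there it was treated as a score. The submitters' processing notes name mRatBN7.2, but chromosome 1 reaches 282724300 in the tables and clone-based names of an older assembly occur, so positions are as listed, without a build. RefSeq names and promoters are of GRCr8, whose gene table held 0 Ensembl identifiers. Of the 34 member names, 28 matched by symbol, 5 by synonym and 1 not at all, and 5 of the matches were on another chromosome.

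Coverage summed per gene was scaled so that reference genes total 1000000 in each library. Where the mean reached at least 1, a gene was tested with limma 3.58.1 in R 4.3.3 (trend, robust, two-sided) on log2(value + 1), a scale that understates changes of low genes, with all 24 libraries in 1 fit and a Benjamini-Hochberg adjusted p under 0.05 over all genes as the threshold. The fit and the rank-sum test were tested on simulated data. Named genes were members past the threshold, the 8 highest of each name class, and replacement variants found under older symbols (H1f0 was not found by name). Lists were written from general knowledge. Members and lists were chosen with earlier results of these data known. Alternatives were a pseudocount of 0.1, tests without a filter or with a minimum mean of 5, other scalings and columns, only the groups compared, exact Wilcoxon tests, libraries 56 to 62 as a term and each rat left out. Those libraries were grouped by a pattern in the data, not a condition. Python 3.11.15, numpy 2.4.6, pandas 2.3.3 and matplotlib 3.10.9 made the summaries and plots.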

Additional observations from a re-analysis of the deposited data

Results flagged for a closer look

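In 3 of 45 sets of 8 values, 1 library lay far from the others by Dixon's criterion, where chance gives about 2.25. Hist2h2aa2 in Low library 64 was 23.6, against 12.8 to 16.6 in the other Low libraries, and Hist2h2aa3 in the same library was 24.3, against 12.6 to 17.8. As near-identical copies these are not separate observations. H3f3c in Low library 57 was 253, against 185 to 215. Low and High differed, by limma in the fit of all libraries, for Hist2h2aa2 (-0.50 on the log2 scale) and for Hist2h2aa3 (-0.45). With libraries 56 to 62 as a term of the fit neither passed (limma adjusted p 0.462 and 0.542). Without these libraries neither passed (adjusted p 0.604 and 0.695). The Low values were below the High median in 7 of 8 libraries for Hist2h2aa2.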

How the results depend on the processing

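No paired analysis was run, since the labels give no pairing of rats between groups. High against Control called 0 members under all alternatives run. The Low against Control count of 0 became 1 with no filter, with no scaling, with the sum without mitochondrial genes (Hist1h2an in each) and on the TPM column (Hist3h2ba), 2 with median-of-ratios scaling and 6 on the FPKM column. With each rat left out it ranged from 0 to 2, beside 4.32% to 7.83% of all genes. It was 2 without Low library 64, beside 6.95%, both being the Hist2h2aa pair. Over all genes the Low against Control share called was 2.51% with no filter, 4.44% with no scaling and 10.8% with the sum without mitochondrial genes. It was 25.4% on TPM, 6.94% with median-of-ratios scaling and 89.7% on FPKM. The Low against High count of 2 became 0 with no filter, beside 4.45% of all genes. It was also 0 with libraries 56 to 62 as a term and without them, beside 2.26% each time. With the opposite-strand genes added, unweighted, it was 0 beside 11.7%. With only the groups compared it was 1 beside 13%, and with the exact Wilcoxon test 1 beside 7.24%. No scaling gave 3 beside 7.99%, and the sum without mitochondrial genes 3 beside 16.7% (Hist1h2an added in both). The FPKM column gave 5, beside 89.8% of all genes. The pair was not among those 5: on FPKM Hist2h2aa2 was at -0.089 (adjusted p 0.532) and Hist2h2aa3 at -0.057 (adjusted p 0.706). With each rat left out the Low against High count ranged from 1 to 2, beside 8.08% to 17.1% of all genes. The low count without libraries 56 to 62 comes with 2 Low rats.

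The FPKM column moved the median of all genes by 0.47 for Low minus Control and 0.43 for Low minus High, the TPM column by 0.10 and 0.06, and no scaling by -0.21 for Low minus High and 0.17 for High minus Control. On FPKM the Low to Control ratio of the summed Hist genes went from 0.968 to 1.36 and that of the other 12 from 1.04 to 1.45. Without scaling the High to Control ratios went from 1.04 to 1.21 and from 1.02 to 1.18. Signs turned on FPKM for H1f2 against Control (0.33), Macroh2a1 against Control (1.001) and High (0.88), H2az1 against High (0.35) and H2az2 against High (0.36). There the median over all genes was 0.53 against Control and 0.52 against High. H1f2, H2az1 and H2az2 thus stayed below it, and Macroh2a1 was above it. On TPM the sign turned for Macroh2a1 (0.61 against Control, 0.48 against High). Without scaling it turned for Ncbp2 (-0.0226) and Anp32e (-0.0148) against High. Without libraries 56 to 62 it turned for Set (0.0504 against Control, 0.0770 against High) and Atrx (0.41 against High). The causes were not tested. Over 2943 log2 differences recomputed under 38 alternatives, 2647 kept direction and side of the threshold, 98 fell below it, 37 rose past it, 149 uncalled ones changed sign and 12 turned.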

Other observations

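Loci assembled from the reads, listed only in the 16 Control and High tables, repeated the histone genes. In 358 cases a locus had the same strand and ends as a member, and in 352 of these its coverage equalled the reference value within 1%. For 12 tested members all 16 tables listed an overlapping locus on the same strand. For 3 members no same-strand locus was listed in any table.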
